A study of Mus musculus with 20 samples.

Results

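Cortex RNA of offspring exposed to inflammation in the womb and given rapamycin was compared with that of control offspring given vehicle only, to see how near the treated state lay to the untreated control state and which differences remained. The comparison took the 5 MIR rapamycin libraries and the 5 control vehicle libraries named in the sample titles, which are 10 of the 20 libraries of the study, and covered all genes with enough reads, 17313 of 48795 listed. MIR stands for maternal inflammatory response. All mice were CD-1 wild-type offspring. The dams of MIR offspring received lipopolysaccharide (LPS, a bacterial cell wall component that triggers innate immunity) at 0.008 mg/kg on gestation day 9, and the dams of control offspring received saline. Of the offspring compared here, MIR mice were injected with rapamycin and control mice with the DMSO vehicle, 2 hours before euthanasia. The other groups, MIR vehicle and control rapamycin with 5 libraries each, entered the same fit. The 2 groups compared therefore differ both in prenatal exposure and in the injection.

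The labels name the tissue as brain and the methods as dissected sensory-motor cortex. Age, sex and litter are not given in the labels. The paper's list of litters places sequencing in young offspring, from fewer litters than mice, without the litter of each library. The p-values measure the spread between these mice as if each were independent, although littermates share a dam and her injection. The methods give equal numbers of males and females, while Xist, the RNA of the inactive X chromosome, was at 499 to 1633 CPM (counts scaled to library size, TMM) in all 20 libraries and the Y-linked Ddx3y, Kdm5d, Eif2s3y and Uty held 2 counts in all of them together. The labels speak of 12 MIR and 12 control mice, and 20 libraries were analysed here.

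Rapamycin binds FKBP12 and inhibits mTOR complex 1, a kinase that couples growth factor and nutrient signals to ribosome production, translation, lipid synthesis and autophagy. Much of this control acts on translation and protein phosphorylation, which RNA counts do not measure. Inflammation in the pregnant dam is used in rodents as a model of a risk factor for autism, and changes in microglia, vessels and mTOR signalling have been studied in the offspring.

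Libraries held 17.8 to 24.5 M counts, with 21.6 ± 1.79 M (SD, n = 5) in MIR rapamycin and 22.4 ± 1.11 M in control vehicle. Of the control vehicle libraries, 3 stood apart by markers of tissue other than cortex. Summed over the marker lists, striatal genes reached 6511 CPM in control vehicle 1 against 376 to 417 CPM in MIR rapamycin, cerebellar genes 4330 CPM in control vehicle 2 against 81.1 to 109 CPM, and choroid plexus genes 2217 CPM in control vehicle 3 against 217 to 261 CPM. The 12 cortex-defining genes summed to 7633 to 8534 CPM in MIR rapamycin and to 2217 to 7755 CPM in control vehicle, lowest in control vehicle 1. Counts of called genes and most genes and lists named below are therefore also given without control vehicle 1, 2 and 3, which leaves 2 control libraries. The part of these markers in the counts of called genes was not tested beyond leaving out these libraries and the fit with the marker scores as covariates given in the closing section.

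By distance over all tested genes (the root mean square difference in log2 CPM between a pair of libraries), MIR rapamycin libraries lay 0.537 (median of 25 pairs, range 0.434 to 0.922) from control vehicle libraries and 0.473 (0.423 to 0.573) from MIR vehicle libraries. Their distance from each other was 0.434 (0.374 to 0.472). Control vehicle libraries were farther from each other over all 10 pairs, with a median of 0.827, but control vehicle 4 and 5 lay only 0.365 apart. With these as the only controls, the distance from MIR rapamycin was 0.490 (0.434 to 0.530 over 10 pairs, each above the distance between both controls) and that from MIR vehicle was 0.492. On this measure single libraries of treated and untreated MIR cortex lay about equally far from these 2 controls. Pairs within MIR vehicle had a median of 0.495, against 0.434 within MIR rapamycin. This spread within a group enters each distance, so the medians do not settle which group mean lay nearer to control. The pairs share libraries, so they carry no test.

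**Figure D1:**
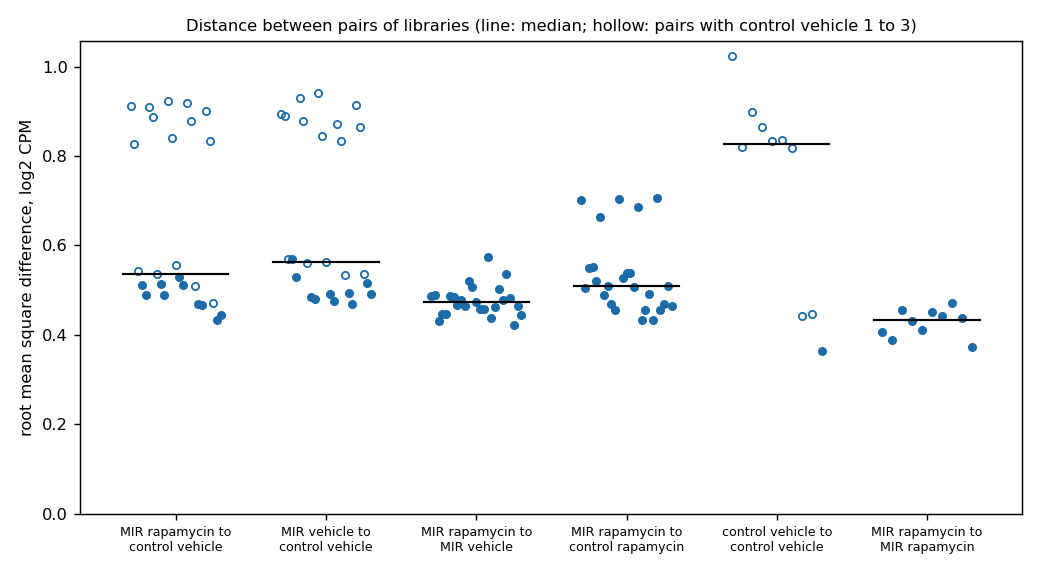
Distance between pairs of libraries (root mean square difference in log2 CPM over 17313 genes, vertical axis) for pairs of groups, with the median as a line. Hollow points are pairs with control vehicle 1, 2 or 3, and without them the MIR rapamycin to control vehicle pairs sit between 0.434 and 0.530, close to the pairs within MIR rapamycin (0.374 to 0.472).

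Between MIR rapamycin and control vehicle 110 genes were higher (0.635% of those tested) and 203 lower (1.17%), or 313 in all (1.81%), at an adjusted p under 0.05 (quasi-likelihood test of edgeR, Benjamini-Hochberg) and an absolute log2 fold change over 0.5. The unadjusted p was under 0.05 for 3075 genes (17.8%). For 518 genes (2.99%) all 5 MIR rapamycin libraries lay above all 5 control vehicle libraries, and for 480 (2.77%) all lay below. At the other end, 8327 genes (48.1%) had a 95% confidence interval of the log2 fold change wholly inside ±0.5, and 13668 (78.9%) inside ±1. For the other genes the libraries do not resolve whether treated MIR cortex was within 0.5 of control. The median log2 fold change over all tested genes was -0.01.

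The count of 313 rested on few libraries. Without control vehicle 1, 2 and 3, 1 gene was called higher (0.00556%) and 1 lower (0.00556%) of 17993 tested, the lower one being Cxcl12, while 844 genes (4.69%) were higher and 853 (4.74%) lower at an unadjusted p under 0.05. On data simulated with these libraries, 79% of genes changed 2-fold were called with all controls and 56% with the 2 that remain. All 110 genes called higher kept their sign without the 3 libraries, with a median log2 fold change of 1.08 in place of 1.25. Of the 203 called lower, 197 kept their sign, but 83 lost most of their change and the median went from -1.11 to -0.56. Leaving out MIR rapamycin 1, 2, 3, 4 or 5 gave 72, 15, 22, 94 or 147 called genes. It was 178 without control vehicle 1, 622 without control vehicle 4, 566 without control vehicle 5, 204 and 177 without control rapamycin 2 and 5, and 178 without MIR vehicle 3. A fit to the 10 libraries alone, which estimates the spread from these groups only, called 0 genes, with 2642 at an unadjusted p under 0.05, against 684 called by DESeq2 and 450 by limma voom in the 20.

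Through all 20 fits that leave out 1 library, 11 genes stayed called, 5 higher (with Syn3, Camkk1, Col4a1 and Gucy2c among them) and 6 lower (Cxcl12, Fgfr2, Cgn, Sorbs3, Plscr4 and Clic6). Among them Camkk1, Gucy2c, Fgfr2, Cgn, Sorbs3, Plscr4 and Clic6 are named because of this count, so after their values were seen. All 11 had an unadjusted p under 0.05 without control vehicle 1, 2 and 3 too. So had 104 of the 110 genes called higher and 147 of the 203 called lower, with the same sign. That fit reuses the other libraries and is not independent support.

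The closest test of what treatment moved is MIR rapamycin against MIR vehicle, since this contrast is the difference between their signed changes from control. It tests whether a gene moved, and does not by itself say whether it came nearer to control or went farther away. There 2 genes were higher (Hif3a and Syn3, 0.0116%) and 1 lower (Cxcl12, 0.00578%), with 864 (4.99%) at an unadjusted p under 0.05 and 9490 (54.8%) with an interval inside ±0.5. Without control vehicle 1, 2 and 3 in the fit, 11 were higher (0.0611%) and 11 lower (0.0611%). The count of 3 became 9 without control vehicle 1, 16 without control vehicle 2, 5 without control rapamycin 1 and 7 without MIR vehicle 4. For comparison, MIR vehicle against control vehicle gave 12 higher (0.0693%) and 5 lower (0.0289%), control rapamycin against control vehicle 263 (1.52%) and 643 (3.71%), and MIR rapamycin against control rapamycin 0 and 0, with 1745 (10.1%) at an unadjusted p under 0.05. These comparisons share libraries, so the values below are set side by side and not correlated.

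Genes of cell division were the largest named group to differ from control in treated MIR cortex. Of 51 tested genes of mitosis (spindle, kinetochore, chromosome condensation and cytokinesis), 27 were higher, 0 lower and 24 did not pass the test, with a median log2 fold change of 1.93. In 19 of the 51 all treated libraries lay above all controls, and 49 had a positive log2 fold change. Of all tested genes, 0.635% were called higher, and 2.99% had all treated libraries above all controls. The same list had a median of 2.03 in MIR vehicle against control vehicle, 0.04 in MIR rapamycin against MIR vehicle and 0.10 in control rapamycin against control vehicle. No gene of the list passed the test between treated and untreated MIR cortex, nor an unadjusted p under 0.05 in either direction, though intervals were wide and inside ±0.5 for 2 of the 51 only. Without control vehicle 1, 2 and 3 the median was 1.94, no gene was called, and 42 genes were higher and 1 lower at an unadjusted p under 0.05.

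These promoters are shown because cell-division genes are known for a shared layout upstream of the start, a CHR element (TTTGAA) with CCAAT boxes, read in the cell cycle by the DREAM and MuvB complexes and NF-Y. The 200 bases before the RefSeq transcription start (GRCm38.p6) are given 5′ to 3′ on the strand of the gene for 4 genes called higher without overlap. Capitals mark CCAAT and TTTGAA on either strand (so also ATTGG and TTCAAA). Top2a lies at chr11:99024190-99024389 (minus strand), Mki67 at chr7:135716380-135716579 (minus), Prc1, at the second of its starts, at chr7:80294276-80294475 (plus) and Ckap2l at chr2:129297213-129297412 (minus). The 200 bases before the first start of Prc1, not printed, hold CCAAT but no complete TTTGAA. The match there begins at position -5 and runs past that start.
Top2a: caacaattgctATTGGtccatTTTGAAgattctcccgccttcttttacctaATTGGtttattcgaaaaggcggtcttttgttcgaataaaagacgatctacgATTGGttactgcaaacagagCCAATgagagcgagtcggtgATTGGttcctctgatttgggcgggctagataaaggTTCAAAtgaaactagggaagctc
Mki67: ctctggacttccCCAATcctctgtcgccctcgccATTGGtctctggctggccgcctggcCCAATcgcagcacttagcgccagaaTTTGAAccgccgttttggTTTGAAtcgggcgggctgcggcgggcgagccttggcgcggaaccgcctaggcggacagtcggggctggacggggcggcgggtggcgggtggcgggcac
Prc1: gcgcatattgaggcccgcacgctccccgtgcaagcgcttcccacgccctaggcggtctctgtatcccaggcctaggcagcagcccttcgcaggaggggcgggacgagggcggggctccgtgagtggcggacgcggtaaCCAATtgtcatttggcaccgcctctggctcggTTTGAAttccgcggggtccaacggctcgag
Ckap2l: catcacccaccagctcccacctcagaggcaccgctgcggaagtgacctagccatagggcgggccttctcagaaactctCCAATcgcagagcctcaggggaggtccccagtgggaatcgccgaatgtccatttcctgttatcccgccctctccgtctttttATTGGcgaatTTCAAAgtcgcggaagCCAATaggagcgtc
Over the full windows of 250 bases before to 50 after the start, 46 promoters matched 43 of the listed mitosis genes. Of these, 33 (71.7%) held CCAAT, 37 (80.4%) held TTTGAA and 29 (63.0%) held both, against 37.4%, 17.9% and 6.95% of all 32851 promoters in the table. These matches describe the letters of the windows and were not measured as binding.

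Top2a, which encodes the topoisomerase that untangles replicated chromosomes, measured 15.6, 9.97, 17.1, 1.73 and 5.43 CPM in MIR rapamycin 1 to 5 and 1.00, 0.0873, 0.858, 0.641 and 0.990 CPM in control vehicle 1 to 5. The lowest treated library, MIR rapamycin 4, was still above every control. Its log2 fold change was 3.79 ± 0.74 (SE, adjusted p = 0.0195 by edgeR with Benjamini-Hochberg adjustment over all tested genes, as for each adjusted p below), and 3.59 without control vehicle 1, 2 and 3. Mki67, the gene of the proliferation antigen Ki-67, measured 14.3, 13.9, 22.8, 2.75 and 6.33 CPM in MIR rapamycin against 0.915, 1.53, 0.944, 0.687 and 1.21 CPM in control vehicle (3.5 ± 0.66, adjusted p = 0.0195, and 3.65 without the 3 libraries). Prc1, a protein that bundles the microtubules of the central spindle, measured 3.36, 3.14, 5.96, 0.979 and 1.67 CPM against 0.479, 0.742, 0.772, 0.549 and 0.431 CPM (2.33 ± 0.43, adjusted p = 0.0189, and 2.61 without the 3). For Ckap2l, a spindle protein of dividing neural progenitors, the values were 3.12, 3.46, 4.81, 1.21 and 1.31 CPM against 0.348, 0.611, 0.815, 0.549 and 0.560 CPM (2.25 ± 0.42, adjusted p = 0.0189, and 2.31 without the 3). In each of these genes MIR rapamycin 1, 2 and 3 were high, 4 and 5 lower, and the groups did not overlap.

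The motor Kif11 (log2 fold change 1.71 ± 0.32), the spindle organiser Aspm (2.56 ± 0.55) and the microtubule protein Nusap1 (2.50 ± 0.55) were also higher without overlap, as was Foxm1, a transcription factor of the G2 phase that is named after its values were seen (1.98 ± 0.36, adjusted p = 0.0173). The checkpoint kinase Bub1b (3.24 ± 0.72) and the motor Kif15 (2.52 ± 0.58) were called with groups that overlapped. Kif15 was not called without control vehicle 1 or MIR rapamycin 1, 2, 3 or 5 (2.33 to 3.07). Of 37 genes of DNA replication and E2F, 3 were higher and none lower (median 0.18), among them the repressor E2f8 (2.73 ± 0.65, adjusted p = 0.0393) and the replication initiation factor Mcm10 (1.55 ± 0.40, adjusted p = 0.0482), called in 12 and 3 of the 20 fits that leave out 1 library. Markers of neural progenitors and neuroblasts gave 0 of 20 called, with a median of -0.09 and 9 of 20 positive.

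The mitosis list score (mean log2 CPM of the genes minus its median over 20 libraries) was 1.77, 1.74, 2.23, 0.25 and 0.84 in MIR rapamycin 1 to 5 and -0.13, -0.14, -0.21, -0.37 and -0.11 in control vehicle 1 to 5. In MIR vehicle it was 1.76, -0.19, 1.81, 1.97 and 1.2, so that MIR vehicle 2 sat with the controls, and in control rapamycin it stayed between -0.39 and 0.07. The calls depended on single libraries: none of the 51 genes was called when MIR rapamycin 2 or 3 was left out, 7 when MIR rapamycin 1 was, 16 when control vehicle 1 was, and 20 to 31 in the other cases. The list's median stayed between 1.67 and 2.11 in all of these. Top2a, Mki67, Prc1, Ckap2l, Kif11 and Foxm1 lost their calls without MIR rapamycin 2 or 3 only, while their log2 fold changes stayed within 3.49 to 4.06, 3.13 to 3.75, 1.93 to 2.56, 1.97 to 2.44, 1.52 to 1.93 and 1.74 to 2.18. Aspm (2.30 to 2.77), Nusap1 (2.19 to 2.71) and Bub1b (2.87 to 3.52) lost theirs without MIR rapamycin 1, 2 or 3. In bulk tissue, more cells of a type and more RNA per cell cannot be told apart.

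**Figure D2:**
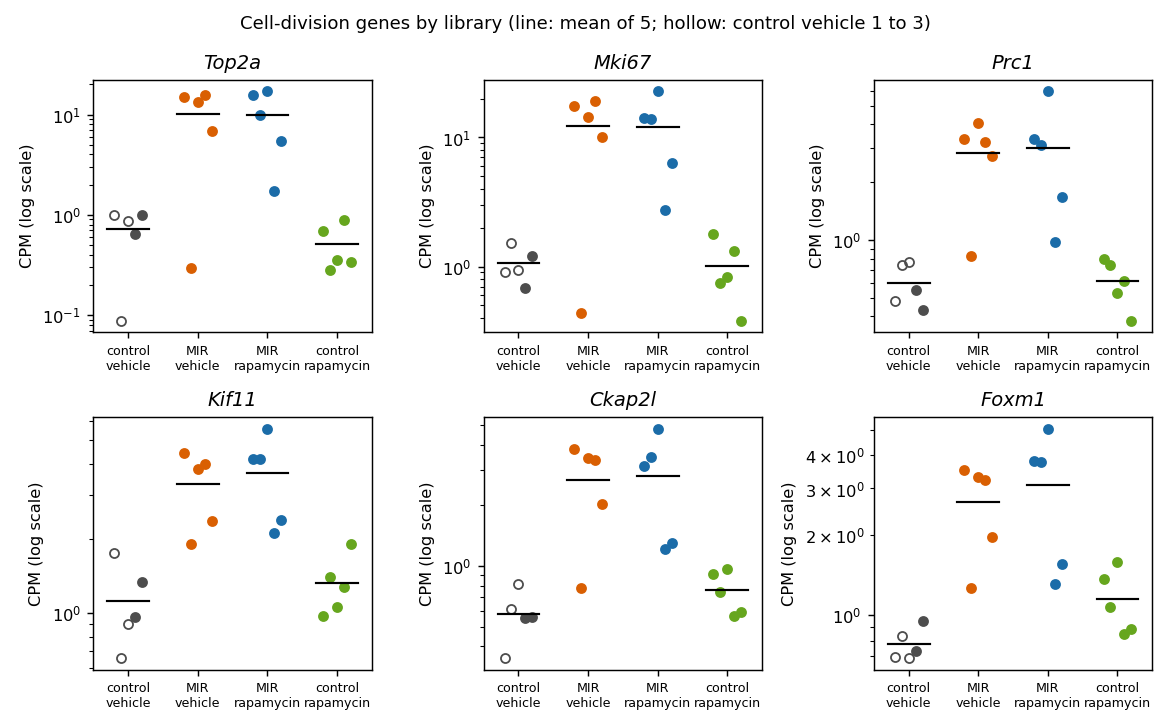
CPM on a log axis of 6 cell-division genes in each library of the 4 groups, with the mean of 5 libraries as a line and control vehicle 1 to 3 hollow. MIR rapamycin and MIR vehicle share the high level, with means near 10 CPM for Top2a, while MIR vehicle 2 (0.293 CPM) and all control libraries (at most 1.00 CPM) are low.

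Another set of genes differed from control vehicle in both rapamycin groups, and for some of them part of the difference was also measured in MIR vehicle. Cxcl12, a chemokine of vessels, meninges and some neurons that guides progenitors and leukocytes through Cxcr4, was the gene with the smallest p. It measured 44.5, 46.3, 32.9, 48.5 and 43.0 CPM in MIR rapamycin and 77.8, 81.4, 72.3, 82.4 and 75.5 CPM in control vehicle. The 2 groups were far apart, and the log2 fold change was -0.86 ± 0.11 (adjusted p = 0.00193), or -0.87 (adjusted p = 0.037) without control vehicle 1, 2 and 3. Untreated MIR cortex was at the control level with 76.0 to 99.7 CPM, and control rapamycin at 40.6 to 56.5 CPM. MIR rapamycin was lower than MIR vehicle by a log2 fold change of -1.0 (adjusted p = 0.00016).

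Syn3, a synapsin of synaptic vesicles, measured 25.4, 24.0, 25.2, 23.6 and 27.6 CPM in MIR rapamycin and 18.0, 13.8, 16.6, 18.4 and 17.4 CPM in control vehicle (0.58 ± 0.10, adjusted p = 0.0173). MIR vehicle was lower still with 12.6 to 15.8 CPM, and the difference from it was 0.87 (adjusted p = 0.00051). Treated MIR cortex thus lay above the control level, near control rapamycin (21.5 to 30.9 CPM). Timp3, which lies within Syn3 on the opposite strand and may share reads with it, was at 106 to 128 CPM against 136 to 188 CPM, with no call (-0.36, adjusted p = 0.164). It is named after its values were seen. Camkk1, a kinase upstream of CaMKI, CaMKIV and AMPK, measured 169, 151, 176, 186 and 163 CPM against 87.3, 107, 112, 123.3 and 108 CPM without overlap (0.65 ± 0.10, adjusted p = 0.00906, and 0.55 without the 3 libraries), with 142 to 180 CPM in control rapamycin and 113 to 154 CPM in MIR vehicle. Its log2 fold change was 0.32 in MIR vehicle against control vehicle and 0.33 in MIR rapamycin against MIR vehicle. Gucy2c, a guanylate cyclase receptor of gut peptides, was at 1.41 to 2.03 CPM against 0.479 to 0.987 CPM (1.35 ± 0.22, adjusted p = 0.0169, and 1.28 without the 3 libraries) and at 1.41 to 2.16 CPM in control rapamycin. MIR vehicle held 1.02 to 1.67 CPM of Gucy2c, also above every control, with a log2 fold change of 0.80 against control vehicle and 0.55 left between the MIR groups.

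Lower without overlap were Fgfr2, Cgn, Sorbs3 and Plscr4. Fgfr2, a fibroblast growth factor receptor of astrocytes and oligodendrocytes, was at 29.8 to 39.8 CPM in MIR rapamycin against 50.4 to 89.6 CPM in control vehicle (-0.82 ± 0.14, adjusted p = 0.0169, and -0.56 without the 3 libraries), with 26.7 to 35 CPM in control rapamycin and 47.5 to 60.4 CPM in MIR vehicle. Other genes are annotated within its span on both strands, so reads may be shared. Cgn, the tight junction protein cingulin, measured 2.49, 2.58, 2.98, 2.52 and 2.98 CPM against 5.49, 9.17, 4.46, 5.90 and 6.20 CPM (-1.2 ± 0.19, adjusted p = 0.0163). Without control vehicle 1, 2 and 3 its difference was -1.16 (adjusted p = 0.075). The adhesion adaptor Sorbs3 was at 13.7 to 17.9 CPM against 22 to 31.9 CPM (-0.79 ± 0.14, and -0.76 without the 3 libraries), and the phospholipid scramblase Plscr4 at 1.17 to 2.00 CPM against 3.14 to 7.12 CPM (-1.38 ± 0.23, and -1.13 without the 3). For Cgn, Sorbs3 and Plscr4 the log2 fold changes of MIR vehicle against control vehicle were -0.66, -0.36 and -0.83, and those of MIR rapamycin against MIR vehicle -0.54, -0.43 and -0.55.

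Glucocorticoid-induced genes gave 5 of 30 higher and none lower, beside 0.635% and 1.17% of all tested genes. Their median log2 fold change was 0.28 (0.17 without control vehicle 1, 2 and 3). Their median was 0.47 in control rapamycin against control vehicle, -0.14 in MIR vehicle against control vehicle and 0.29 in MIR rapamycin against MIR vehicle. In 7 of the 30 all treated libraries lay above all controls and in 1 all lay below. Of all tested genes, 2.99% lay above and 2.77% below in this way. Without control vehicle 1, 2 and 3, 10 of the 30 were higher and 2 lower at an unadjusted p under 0.05. Of all genes, 4.69% and 4.74% were. Fkbp5, an immunophilin that dampens glucocorticoid receptor activity and also binds rapamycin, measured 86.9, 89.0, 92.8, 75.5 and 75.1 CPM against 55.1, 16.0, 40.1, 37.7 and 34.5 CPM. The groups did not overlap (1.19 ± 0.25, adjusted p = 0.0213, and 1.22 without the 3 libraries), and control rapamycin held 63.1 to 151 CPM. Pla2g3, a secreted phospholipase, was at 4.57 to 10.9 CPM against 2.36 to 3.66 CPM (1.32 ± 0.24, adjusted p = 0.0173). Sult1a1, a phenol sulfotransferase, was at 8.82 to 12.7 CPM against 3.40 to 7.02 CPM (0.85 ± 0.22, adjusted p = 0.0473), a call held in 5 of the 20 fits that leave out 1 library. Fkbp5 lost its call without MIR rapamycin 1, 2 or 3 (1.00 to 1.39 over the 20 fits) and Pla2g3 without MIR rapamycin 3 only (1.13 to 1.45). Over the list, leaving out MIR rapamycin 3 gave 0 calls, MIR rapamycin 1 or 2 gave 1, and any other library 2 to 5, with 1 gene called lower when control vehicle 4 or 5 was left out. The full consensus palindrome of the glucocorticoid response element, searched on both strands, was in 1 of 35 promoters of these genes (2.86%) and in 3 of all 32851 (0.00913%). The 35 promoters belong to 23 genes, and a share resting on 1 match cannot be set against the other. Binding was not measured.

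Cdkn1a, the inhibitor of cyclin-dependent kinases p21, which is on this list and on the list of genes that the study names as lowered by rapamycin, measured 28.7, 38.2, 25.1, 17.5 and 19.6 CPM against 13.5, 8.34, 7.90, 12.1 and 12.3 CPM in control vehicle. It did not overlap (1.25 ± 0.30, adjusted p = 0.0405), though the call held in 10 of the 20 fits only. Its level was as high in MIR vehicle (10.3 to 31.6 CPM) and in control rapamycin (21.7 to 49.6 CPM), and the log2 fold change against MIR vehicle was 0.13.

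Of 18 tested acute-phase and inflammatory genes, 4 were higher and none lower (median 0.35, and 0.36 without control vehicle 1, 2 and 3). These counts stand beside 0.635% called higher and 1.17% called lower of all tested genes. Lcn2, the siderophore-binding lipocalin of the acute phase, measured 3.02, 1.80, 2.45, 0.840 and 0.776 CPM in MIR rapamycin and 0.131, 0.131, 0.129, 0 and 0.129 CPM in control vehicle. The controls were at a few reads each, so the fitted log2 fold change of 4.01 ± 0.94 (adjusted p = 0.0365) is loosely set. Lrg1, a leucine-rich glycoprotein of acute phase plasma and vessels, was at 1.43 to 5.91 CPM against 0.0871 to 1.48 CPM, with an overlap in 1 pair of libraries (2.09 ± 0.45, adjusted p = 0.0255). Il6ra, the interleukin 6 receptor, was at 9.28 to 15.5 CPM against 6.05 to 8.54 CPM (0.79 ± 0.20, adjusted p = 0.0457, called in 4 of 20 fits). Saa3, a serum amyloid A whose copies may share reads, measured 1.75, 0.0923, 3.36, 0.0466 and 0.980 CPM against 0, 0.0437, 0, 0 and 0 CPM (adjusted p = 0.0499), and 0 to 6.69 CPM in MIR vehicle. The Saa3 call held in 4 of the 20 fits that leave out 1 library. Its log2 fold change there was 5.64 to 7.74, loosely set with controls at or near 0 CPM. Lcn2 and Lrg1 were also high in control rapamycin (0.400 to 5.19 and 2.68 to 5.10 CPM), while Saa3 was not (0 to 0.0571 CPM). In MIR vehicle Lcn2 was at 0 to 2.94 CPM and Lrg1 at 0.694 to 1.76 CPM, with log2 fold changes of 3.37 and 0.73 against control vehicle and of 0.64 and 1.35 in MIR rapamycin against MIR vehicle. Lcn2 lost its call without control vehicle 1 or MIR rapamycin 1, 2, 3 or 4 (3.70 to 4.20 over the 20 fits), and Lrg1 without MIR rapamycin 1, 2 or 3 (1.80 to 2.39).

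**Figure D3:**
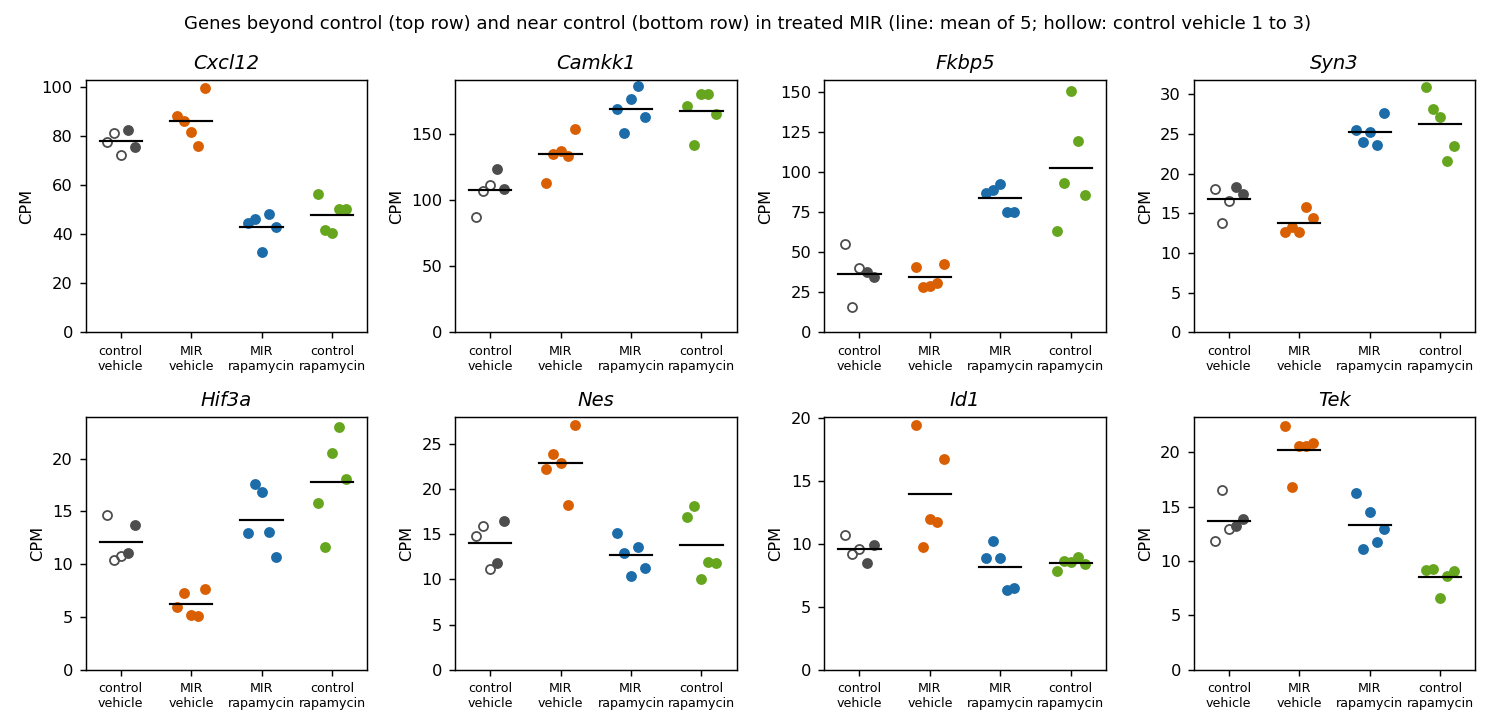
CPM (linear axis) of 8 genes in each library of the 4 groups, with the mean as a line and control vehicle 1 to 3 hollow. In the top row (Cxcl12, Camkk1, Fkbp5, Syn3) all MIR rapamycin libraries lie outside the control vehicle range on the side of control rapamycin, as for Cxcl12 with at most 48.5 CPM against at least 72.3 CPM. In the bottom row (Hif3a, Nes, Id1, Tek) they overlap control vehicle, while MIR vehicle lies apart from both in Hif3a, Nes and Tek, in Nes at 18.2 to 27.1 CPM against 10.4 to 15.2 CPM.

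A further set of genes overlapped control in treated MIR cortex, while untreated MIR cortex lay higher or lower. Hif3a, a hypoxia-inducible factor subunit that responds to glucocorticoids, measured 13, 17.6, 16.9, 13 and 10.7 CPM in MIR rapamycin and 14.7, 10.4, 10.8, 11.1 and 13.7 CPM in control vehicle. The groups overlapped, with a log2 fold change of 0.23 and a 95% interval of -0.14 to 0.60. MIR vehicle held 5.10 to 7.61 CPM, below every library of both, so that treated and untreated MIR cortex differed by 1.19 ± 0.18 (adjusted p = 0.015). This call was lost without MIR vehicle 1 or 3 or MIR rapamycin 2 or 3, with values of 1.10 to 1.28 over the 20 fits. Control rapamycin was at 11.6 to 23 CPM.

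Nes, the intermediate filament nestin of progenitors and vessel cells, measured 15.2, 12.9, 10.4, 13.6 and 11.3 CPM against 14.8, 15.8, 11.1, 11.8 and 16.4 CPM (-0.15, interval -0.48 to 0.19) and 18.2 to 27.1 CPM in MIR vehicle. Its difference from MIR vehicle, -0.85, did not pass the test (adjusted p = 0.079). Tek, the angiopoietin receptor of endothelium, was at 11.1 to 16.3 CPM against 11.8 to 16.5 CPM (-0.04, interval -0.29 to 0.22), with 16.8 to 22.4 CPM in MIR vehicle and 6.59 to 9.26 CPM in control rapamycin. Control rapamycin thus lay below control vehicle, with which MIR rapamycin overlapped. Nes and Tek come from the list of 8 genes that the study names as lowered by rapamycin in MIR, a list chosen on these samples and therefore not independent evidence of a direction. Of the 8, Cdkn1a was called against control vehicle and the other 7 were not. The list's median log2 fold change was 0.14 against control vehicle, 0.94 in MIR vehicle against control vehicle and -0.85 in MIR rapamycin against MIR vehicle, where 7 genes were lower at an unadjusted p under 0.05.

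The intervals differed in what they allow. Id1, an inhibitor of helix-loop-helix factors downstream of BMP, was within -0.58 to 0.11 of control (8.47 to 10.7 CPM in control vehicle, 6.30 to 10.2 CPM in MIR rapamycin, 9.70 to 19.4 CPM in MIR vehicle). Tiparp, a mono-ADP-ribosyltransferase, was within -0.59 to 0.39. The small GTPase Gem (-0.67 to 1.41), the vascular early response gene Apold1 (-0.49 to 1.12) and the urokinase receptor Plaur (-0.01 to 1.24) had intervals that also hold differences of 2-fold, so a return to the control level was not resolved for them. In MIR vehicle Gem was at 1.56 to 11.8 CPM and Apold1 at 6.58 to 27.9 CPM, with MIR vehicle 2 and 4 low in both.

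Of the 5 genes that the study names as raised by rapamycin in MIR, also chosen on these samples, 0 were called against control vehicle (median 0.23, and -1.25 in MIR vehicle against control vehicle). Besides Hif3a they are Plin4, a lipid droplet coat protein, Tekt4, a tektin of cilia, Chd7, a chromatin remodeller, and Cntnap3, a neurexin-related adhesion protein. Plin4 was at 20.1 to 38.9 CPM against 4.76 to 32.9 CPM (0.79, interval 0.00 to 1.58) and 2.67 to 9.47 CPM in MIR vehicle. Tekt4 was at 0.939 to 2.29 CPM against 0.393 to 2.26 CPM (0.66, interval -0.21 to 1.53). Cntnap3 lay on the other side, at 4.57 to 6.08 CPM against 3.36 to 17.9 CPM (-1.0, adjusted p = 0.075), close to MIR vehicle (3.56 to 8.10 CPM). Chd7 was at 17.7 to 18.3 CPM in MIR rapamycin and at 30.5, 305, 18.4, 19.4 and 20.3 CPM in control vehicle, so that its log2 fold change of -2.12 (adjusted p = 0.0631) became -0.13 without control vehicle 1, 2 and 3.

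Among the genes with the smallest p against MIR vehicle were Serpinh1, a collagen chaperone, and S1pr1, a sphingosine phosphate receptor of endothelium and astrocytes. Serpinh1 measured 11, 9.69, 8.12, 7.51 and 7.96 CPM against 11.3, 13.4, 12.3, 13 and 14.5 CPM in control vehicle, below control in every library without reaching a call (-0.54, adjusted p = 0.0504). S1pr1 was at 115 to 128 CPM against 128 to 157 CPM (-0.19, adjusted p = 0.226) and 145 to 196 CPM in MIR vehicle.

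Vessel genes held a few calls, all but 1 of them higher in treated MIR cortex. The share called over all tested genes was 0.635% higher and 1.17% lower. Of 24 endothelial markers, 2 were higher and none lower (median 0.17, against 0.44 in MIR vehicle against control vehicle and -0.19 in MIR rapamycin against MIR vehicle). Cd93, a receptor of endothelial cells, measured 14.4, 9.65, 14.9, 8.02 and 9.39 CPM in MIR rapamycin and 5.18, 7.25, 4.63, 4.99 and 5.73 CPM in control vehicle, with no overlap (1.02 ± 0.22, adjusted p = 0.0269, and 1.07 without control vehicle 1, 2 and 3). It was at 8.09 to 20.9 CPM in MIR vehicle and 4.11 to 7.16 CPM in control rapamycin. Cldn5, the tight junction protein of the blood-brain barrier, was at 24.8 to 37.6 CPM against 15.1 to 23.6 CPM (0.62 ± 0.16, adjusted p = 0.0489, 0.77 without the 3 libraries, called in 4 of 20 fits). The endothelial nitric oxide synthase Nos3 was at 8.49 to 12.2 CPM against 6.44 to 8.01 CPM and missed the call (0.55, adjusted p = 0.0507). In these 3 genes MIR rapamycin lay above and control rapamycin within or near the control range. Cd93 lost its call without MIR rapamycin 1, 2 or 3 (0.90 to 1.13).

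Basement membrane genes gave 2 of 19 higher, with a list median of -0.36 (-0.11 without control vehicle 1, 2 and 3), so the called pair lay opposite to the median of its list. They were the type IV collagens Col4a1 and Col4a2, which overlap at their shared start on opposite strands. Col4a1 measured 58.8, 60.0, 65.6, 48.9 and 42.6 CPM against 24.4, 29.5, 27.8, 37.0 and 34.8 CPM, with no overlap (0.85 ± 0.14, adjusted p = 0.0169, and 0.62 without the 3 libraries). Col4a2 was at 50.3 to 72.4 CPM against 33.5 to 46.9 CPM (0.67 ± 0.13, adjusted p = 0.0195), a call lost without MIR rapamycin 2 or 3 (0.62 to 0.75). Both were about as high in MIR vehicle (42.7 to 60.7 and 55.3 to 76.1 CPM). Pericyte and smooth muscle markers gave 0 of 14 called (median -0.39, and -0.14 without the 3 libraries) and meningeal fibroblast markers 0 of 15 (median -0.55, and -0.43 without the 3).

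Of 26 vascular rapid-response genes, 2 were higher and 1 lower (median 0.14, or -0.07 without control vehicle 1, 2 and 3), against a median of 0.53 in MIR vehicle against control vehicle and -0.41 in MIR rapamycin against MIR vehicle. Besides Cd93, F2rl2, the protease-activated receptor 3, was higher at 1.59 to 2.91 CPM against 0.0871 to 1.68 CPM (1.70 ± 0.43, adjusted p = 0.0469, 0.92 without the 3 libraries, called in 2 of 20 fits). Adamts4, an aggrecan-cleaving protease also found in oligodendrocytes, was lower at 9.76 to 12.2 CPM against 15.9 to 49.5 CPM (-1.11 ± 0.26, adjusted p = 0.0391), with the highest level in control vehicle 1. Its log2 fold change was -0.66 without that library, where it was not called.

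Immediate early genes of neuronal activity gave 2 of 43 higher and none lower, beside 0.635% and 1.17% of all tested genes. Their median was 0.19. That median changed sign to -0.24 without control vehicle 1, 2 and 3, when 4 genes were higher and 12 lower at an unadjusted p under 0.05. Summed over the list, MIR rapamycin held 2712 to 3520 CPM and control vehicle 1020 to 4134 CPM, with MIR vehicle at 3319 to 5917 CPM. In list score, control vehicle 1 and 2 were lowest with -1.36 and -1.34. Inhba, a subunit of activin, was at 6.34 to 12.1 CPM against 3.00 to 7.06 CPM (1.00 ± 0.22, adjusted p = 0.0269, and 0.95 without the 3 libraries), and Vgf, a neuropeptide precursor, at 242 to 396 CPM against 73.3 to 213 CPM (0.89 ± 0.22, adjusted p = 0.0403, and 0.55 without the 3). Both were as high in MIR vehicle (6.33 to 11.2 and 265 to 446 CPM) and in control rapamycin (6.58 to 9.82 and 265 to 366 CPM). Inhba was not called when any of the MIR rapamycin libraries was left out (0.88 to 1.22), and Vgf was called in 10 of 20 fits.

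Microglial, complement, interferon and MHC class I lists held no calls, beside 1.81% called of all tested genes. Microglial markers gave 0 of 22 (median 0.16, and 0.18 without control vehicle 1, 2 and 3), with 551 to 845 CPM in sum in MIR rapamycin, 472 to 832 CPM in control vehicle and 581 to 1072 CPM in MIR vehicle. Complement genes gave 0 of 16 (median 0.16). Interferon-stimulated genes gave 0 of 24 with a median of -0.63 that became 0.20 without the 3 libraries, and MHC class I genes 0 of 16 with a median of -0.12 that became 0.77. Markers of border macrophages, MHC class II and leukocytes gave 1 of 12 lower (median -0.30, and 0.02 without the 3 libraries). Without the 3 libraries, 5 microglial genes were higher and 1 lower at an unadjusted p under 0.05. The counts were 4 and 0 for MHC class I, 3 and 0 for complement, 2 and 1 for interferon-stimulated genes, and 1 and 2 for the border list. Of all genes, 4.69% were higher and 4.74% lower at this mark. Intervals lay inside ±0.5 for 2 microglial genes, 0 complement genes, 1 interferon-stimulated gene and 1 MHC class I gene, so they do not resolve whether treated MIR cortex was at the control level.

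Genes of the oligodendrocyte lineage held 1 call of 18 among the mature markers and 2 of 16 among precursor and early genes, all lower. Over all tested genes, 1.17% were called lower. Of the 18 oligodendrocyte markers, none had a positive log2 fold change, and the median was -0.78 (-0.51 without control vehicle 1, 2 and 3, when 8 were lower at an unadjusted p under 0.05). Their median was -0.44 in MIR vehicle against control vehicle and -0.83 in control rapamycin against control vehicle. Opalin, a membrane protein of myelin-forming cells, measured 3.17, 5.49, 3.27, 5.27 and 6.0 CPM in MIR rapamycin and 15.9, 7.73, 13.9, 9.02 and 14.7 CPM in control vehicle. The groups did not overlap (-1.40 ± 0.33, adjusted p = 0.0391, and -1.35 without the 3 libraries). The call was lost without control vehicle 1, control rapamycin 5 or any of the MIR rapamycin libraries (-1.53 to -1.29). The myelin enzyme Cnp was at 129 to 178 CPM against 174 to 507 CPM (-0.83, adjusted p = 0.0717, and -0.45 without the 3 libraries), highest in control vehicle 1.

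Among 16 precursor and early lineage genes, 2 were lower and 2 had a positive log2 fold change (median -0.38, and -0.30 without the 3 libraries). Enpp6, a phosphodiesterase that marks newly forming oligodendrocytes, measured 2.73, 1.89, 2.69, 2.98 and 2.53 CPM against 14.1, 4.02, 6.91, 6.77 and 6.63 CPM, with no overlap (-1.58 ± 0.32, adjusted p = 0.0197, and -1.38 without the 3 libraries). It was at 3.56 to 7.46 CPM in MIR vehicle and 1.66 to 4.33 CPM in control rapamycin. C1ql1, a secreted C1q-like protein of precursors, was at 2.86 to 3.59 CPM against 3.36 to 13.1 CPM (-1.01 ± 0.25, adjusted p = 0.0452, called in 6 of 20 fits). Named after their values were seen, the lineage genes St18 (a zinc finger factor), Pllp (plasmolipin) and Ndrg1 gave -2.78 ± 0.51, -0.99 ± 0.20 and -0.98 ± 0.22. St18 measured 93.2 CPM in control vehicle 2, and its log2 fold change was -1.29 without control vehicle 1, 2 and 3. Enpp6 and St18 lost their calls without MIR rapamycin 2 or 3 (-1.75 to -1.24 and -3.01 to -1.65). Control vehicle 1 held the highest sum of oligodendrocyte markers, 11174 CPM against 3268 to 4149 CPM in MIR rapamycin, and control vehicle 2 the lowest of the controls, 2835 CPM. The part of white matter in the sample was not tested.

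Red blood cell genes gave 0 of 5 called, with a median of -1.33, and -1.94 without control vehicle 1, 2 and 3, when 4 of the 5 were lower at an unadjusted p under 0.05. The globin gene Hba-a1, whose copies may share reads, was at 2.68, 14.5, 4.42, 9.70 and 4.17 CPM against 8.54, 11.8, 25.1, 16.1 and 52.2 CPM (-1.68, adjusted p = 0.0623). The highest level was in control vehicle 5, and the groups overlapped.

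**Figure D4:**
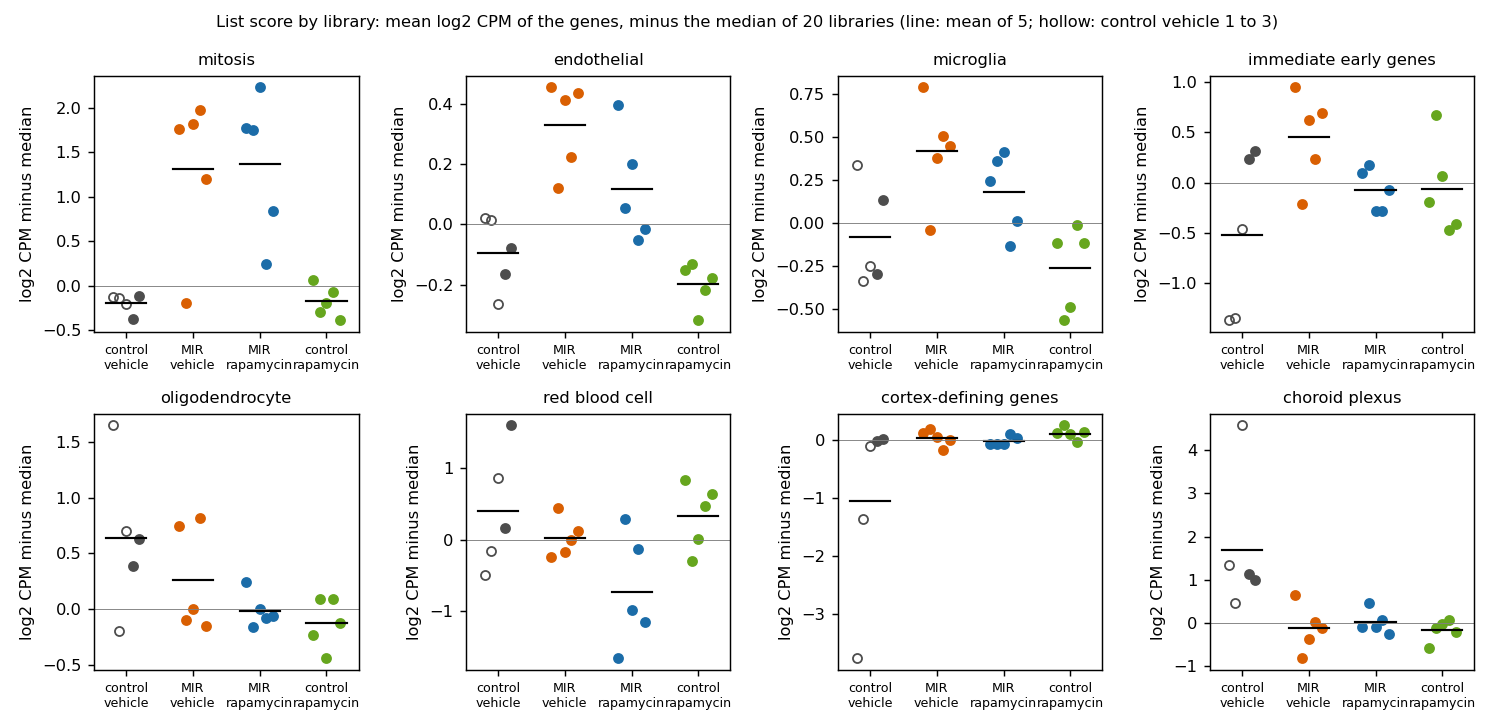
List scores (mean log2 CPM of the genes minus the median of 20 libraries) of 8 gene lists in each library, with the mean as a line and control vehicle 1 to 3 hollow. The mitosis score separates MIR rapamycin (0.25 to 2.23) from control vehicle (-0.37 to -0.11), while cortex-defining genes drop to -3.77 in control vehicle 1 and -1.36 in control vehicle 2, and choroid plexus genes peak in control vehicle 3.

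Pathways next to mTOR held no calls, beside 1.81% called of all tested genes. At that share lists of this size hold few calls or none, so the absence does not set them apart. Most intervals of these pathways were narrow. Of 44 mTOR pathway components 0 were called and 37 had an interval inside ±0.5, with a median log2 fold change of 0.05. Nuclear genes of oxidative phosphorylation gave 0 of 74 called and 70 inside (median -0.01), autophagy and lysosome genes 0 of 41 and 37 inside (median 0.06), and cytosolic ribosomal proteins 0 of 80 and 53 inside (median 0.03). ATF4 targets and tRNA synthetases, which mTOR complex 1 regulates at the RNA level, gave 0 of 33 called and 25 inside (median 0.02). Beside these, 48.1% of all genes were inside. Precision is lowest at low counts, and the lists were not compared with genes of like level. Cholesterol and fatty acid synthesis, the route controlled by SREBP factors, gave 0 of 31 called and 23 inside, with mostly negative values (median -0.15, and -0.20 without control vehicle 1, 2 and 3, when 8 were lower at an unadjusted p under 0.05) and 4 of 31 positive. It was -0.05 in MIR vehicle against control vehicle and -0.04 in control rapamycin against control vehicle.

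Genes of excitability are set beside 0.635% called higher and 1.17% called lower of all tested genes, with no test of the difference. Potassium channels gave 2 of 40 lower and glutamate receptors and transporters 1 of 31 lower. Sodium and calcium channels gave 0 of 29 and GABA synapse genes 0 of 23. Their medians were 0.08, -0.11, -0.01 and -0.10, and without control vehicle 1, 2 and 3 they were -0.01, -0.15, -0.04 and -0.00. Of the 24 tested channel, receptor and factor genes that the study names as lower in MIR, 6 were lower here (median -1.30, or -0.41 without control vehicle 1, 2 and 3), and of the 12 named as higher, 3 were higher (median 0.53, or 0.30). Of the study's autism genes, 3 of the 9 higher in MIR were called higher (median 0.92, or 0.45) and 0 of 8 lower (median -1.06, or -0.33). These 4 lists were chosen on these samples and are not independent evidence. Trpv1, the capsaicin receptor, is on the first of them: it measured 0.0487, 0.0923, 0.0481, 0.0466 and 0 CPM in MIR rapamycin and 0, 1.57, 1.03, 1.60 and 1.16 CPM in control vehicle (-4.38 ± 1.02, adjusted p = 0.0358, and -4.74 without the 3 libraries). It was at 0 to 0.0982 CPM in MIR vehicle and 0 to 1.36 CPM in control rapamycin, and lost its call when any MIR rapamycin library was left out.

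**Figure D5:**
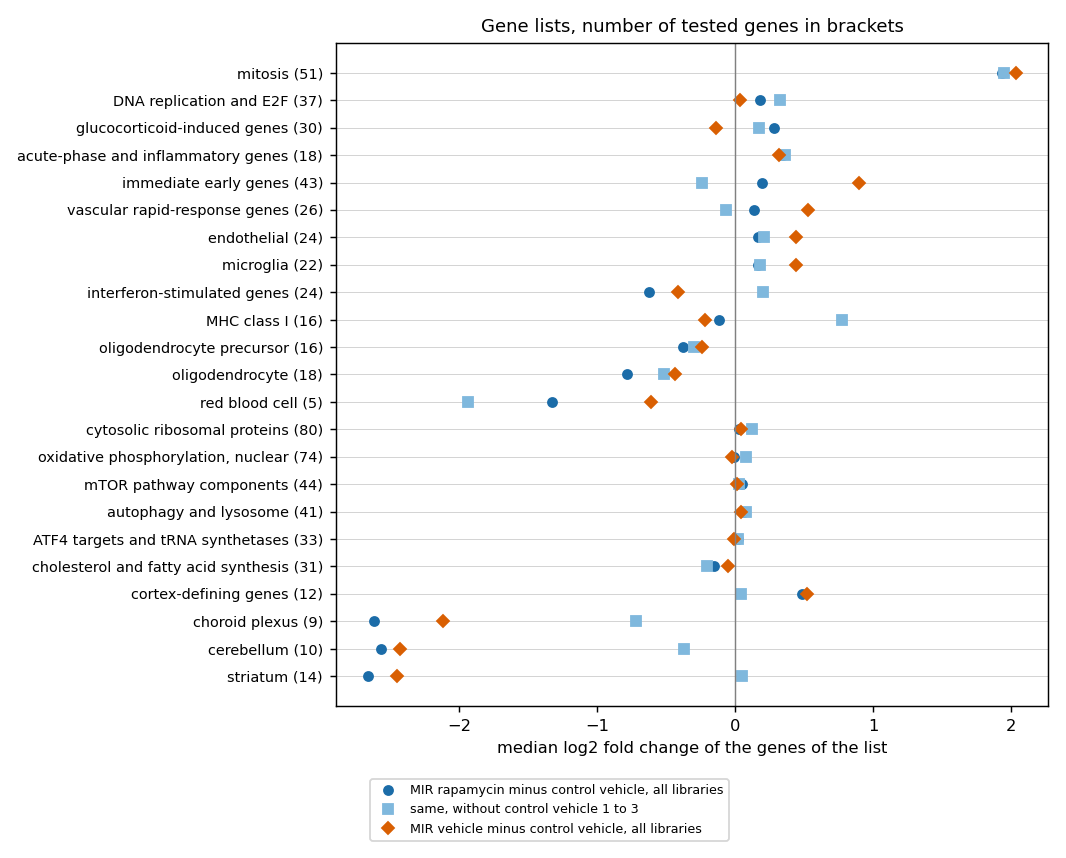
Median log2 fold change (horizontal axis) of 23 gene lists, with the number of tested genes in brackets, for MIR rapamycin minus control vehicle with all libraries and without control vehicle 1 to 3, and for MIR vehicle minus control vehicle. The mitosis list is near 2 in all 3, mTOR, ribosomal and oxidative phosphorylation lists sit at 0, and the striatum, cerebellum and choroid plexus lists go from -2.66, -2.57 and -2.62 to 0.05, -0.37 and -0.72 without the 3 libraries.

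Of the 8 genes with the lowest log2 fold changes, 7 were far higher in 1 control library than in the others, and Prl was not. Cbln3, a cerebellar granule cell gene, measured 0.385 to 0.60 CPM in MIR rapamycin and 0.740, 841, 0.429, 0.549 and 0.818 CPM in control vehicle. Its log2 fold change of -8.45 ± 1.90 (adjusted p = 0.0302) came from control vehicle 2 and was -0.52 without control vehicle 1, 2 and 3. Igkc (-7.94), Dnah11 (-5.83), Ltbp2 (-5.23), Arhgef33 (-4.96) and En2 (-4.85) were likewise highest in control vehicle 2 and not called without it, and Dnah11 and Ltbp2 had the opposite sign without the 3 libraries (0.15 and 0.28). Ttr, transthyretin of the choroid plexus, had 1141 CPM in control vehicle 3 against 0.195 to 6.42 CPM in MIR rapamycin (-7.07, and -2.57 without the 3 libraries). Clic6, a chloride channel gene of the choroid plexus, was at 0.123 to 0.785 CPM against 22.2, 4.54, 29.8, 1.88 and 1.72 CPM, and so below every control (-4.49 ± 0.78, adjusted p = 0.0169, and -1.75 without the 3). Prl, the pituitary hormone prolactin, was at 0 to 0.369 CPM against 0.218, 6.42, 17.3, 3.20 and 8.27 CPM (-6.18 ± 1.30, adjusted p = 0.0245, and -5.87 without the 3). Clic6 stayed called without any 1 library and Prl without any 1 control, while Cbln3, Igkc, Ttr and Prl were not called when any MIR rapamycin library was left out.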

How the data were processed

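RNA of 20 mice, 5 libraries in each of 4 groups, was sequenced by the authors with a stranded mRNA kit. Per the submitters' processing notes, STAR 2.4.0, HTSeq 0.6.1 and the mm10 build were used, and the deposited table holds raw counts per gene, made by the authors without normalization, for 48795 Ensembl IDs. The methods name another annotation (RefSeq) than these IDs, and no source used here says how strand entered the counting, so overlapping genes on opposite strands may share reads. The methods mention removal of outlier libraries, without naming them. Gene positions came from GENCODE M21 and promoters from RefSeq on GRCm38.p6.

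The counts were fitted with edgeR 4.0.16 under R 4.3.3 (filterByExpr with a minimum count of 10 and total of 15, TMM, one quasi-likelihood model with 4 group means on all 20 libraries), with Benjamini-Hochberg adjustment over every gene tested. The common biological coefficient of variation was 21.9%. Called genes had an adjusted p under 0.05 and an absolute log2 fold change over 0.5. Log2 CPM used a prior count of 2. Depth of 17.8 to 24.5 M counts sets the precision, which is lowest for genes at low counts. No 2 libraries agreed within counting noise. Alternatives were DESeq2 1.42.0, limma 3.58.1 (voom with sample weights), edgeR's likelihood ratio test and robust fit, other scaling, filters and threshold, only the compared groups, the replicate number as a block, marker covariates, and leaving out libraries.

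The edgeR fit and its calls were tested on simulated counts. In the main comparison over 17313 genes, 79% of 2-fold and 92% of 4-fold changes were recovered. The shares were 56% and 91% without control vehicle 1, 2 and 3, and 68% and 93% against MIR vehicle. The simulated means did not include the tissue markers of control vehicle 1, 2 and 3. The text names, of the called genes averaging 1 CPM or more and carrying an ordinary symbol, the 8 highest and 8 lowest fold changes, those called with and without control vehicle 1, 2 and 3, the 4 higher and 4 lower genes with the smallest p against MIR vehicle, the genes of the study lists lowered and raised by rapamycin, and, for each list described, at most 4 of its genes by smallest p. Other genes are said to be named after their values were seen. The comparison, the 54 gene lists and the tests were chosen with earlier results of these data known. Of the 54 lists, 28 held no called gene. Lists were described by counts and medians, with no test of the list. Some results are not reported here.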

Additional observations from a re-analysis of the deposited data

Results flagged for a closer look

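Of 154 groups of 5 libraries (77 genes in control vehicle and MIR rapamycin), 26 held a library set apart from the other 4 by Dixon's criterion at 95%, 21 of them in control vehicle and 5 in MIR rapamycin. Chance gives about 1 in 20 for genes picked without regard to their values. These 77 genes were picked by their values in these libraries, some of them high in 1 control library. The count of 26 can therefore not be judged against that rate.

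Control vehicle 2 stood apart, high, in Cbln3 (841 CPM), Chd7 (305 CPM), Igkc (162 CPM), En2 (110.1 CPM), St18 (93.2 CPM), Arhgef33 (76.7 CPM), Ltbp2 (65.1 CPM), Dnah11 (55.1 CPM), Plscr4 (7.12 CPM) and Saa3 (0.0437 CPM, the only control with a read), and low in Sult1a1 (3.40 CPM). Control vehicle 1 was high in Cnp (507 CPM), Timp3 (188 CPM), Fgfr2 (89.6 CPM), Adamts4 (49.5 CPM), Enpp6 (14.1 CPM), Slc40a1 (10.1 CPM) and Nos3 (8.01 CPM). Control vehicle 3 was high in Ttr (1141 CPM), control vehicle 5 in F2rl2 (1.68 CPM), and control vehicle 4 had no read of Lcn2 (0 CPM). Slc40a1, the iron exporter ferroportin, was higher in MIR rapamycin (10.2 to 12.8 CPM against 7.07 to 10.1 CPM, log2 fold change 0.54 ± 0.10, adjusted p = 0.0195 by edgeR) and is named after its values were seen.

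In MIR rapamycin, library 1 stood apart in Cldn5 (37.6 CPM, high), library 2 in Ttr (6.42 CPM) and Prl (0.369 CPM), both high, library 3 in S1pr1 (115 CPM, low) and library 5 in Sorbs3 (17.9 CPM, high).

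MIR rapamycin and MIR vehicle, each set against control vehicle, differed by a test of the difference in 3 genes: Hif3a (log2 fold change 1.19), Syn3 (0.87) and Cxcl12 (-1.0).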

How the results depend on the processing

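The count of 313 genes became 2 without control vehicle 1, 2 and 3, 684 in DESeq2 (301 of them among the 313), 739 in edgeR's likelihood ratio test, 0 with the 2 groups alone and 0 with marker covariates (library scores of the striatum, cerebellum and choroid plexus lists), where 1285 genes had an unadjusted p under 0.05. It was 15 to 622 when single libraries were left out. The count of 3 against MIR vehicle became 22 without control vehicle 1, 2 and 3, 36 in DESeq2, 28 in the likelihood ratio test, 59 in limma voom, 31 with the 2 groups alone, 20 with marker covariates and 6 at an adjusted p under 0.1 with a log2 fold change over 1, and 2 to 16 without single libraries. The count of genes with an interval inside ±0.5 stayed within 1.5 times of 8327 in each alternative that gives intervals. The cause of these shifts was not tested.

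Replicate numbers were taken from the titles and do not pair the mice: correlations of the deviations of same-numbered libraries were -0.12 to 0.10 between the 2 groups compared. With the replicate block the counts were 137 and 5.

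Signs turned for Dnah11 (0.15) and Ltbp2 (0.28) without control vehicle 1, 2 and 3, and for Cbln3 (0.11), Dnah11 (1.94) and En2 (0.032) with marker covariates. The 77 genes were also followed over the alternatives other than leaving out a single library. There 577 values either kept the call and its direction or stayed uncalled within 1 SE. A further 187 lost the call, 30 gained one, 27 moved by over 1 SE without a call and 5 changed sign. A change of sign was counted only for genes called in the main or the alternative fit. DESeq2 gave no adjusted p for 12 of the 313 genes, and these are in no count of lost calls.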
